A study of Mus musculus with 4 samples.

Results

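The 10 genes followed here belong to the brakes of the cell cycle and to the p53 pathway of the mouse: the CDK inhibitors Cdkn1a, Cdkn1b, Cdkn2c and Cdkn2d, the p53 gene Trp53, and the p53 target genes Mdm2, Ccng1, Btg2, Sesn1 and Trp53inp1. They were taken by symbol from a table of 19044 genes, with earlier results of these data known. All 10 had a mean of at least 5 CPM (reads of the gene scaled to a common library size), the minimum that left 9680 genes for testing. The cells were regulatory T (Treg) cells, a CD4 lineage that is defined by Foxp3 and holds immune responses in check, from spleen and lymph nodes of untreated mice. WT mice carried Foxp3-YFP-Cre, a Cre recombinase with a yellow fluorescent protein that is active in Foxp3-expressing cells, and knockout mice carried Ripk1fl/fl in addition, so both genotypes held the Cre. There was 1 library per genotype for each of 2 Treg states, rTreg and aTreg, whose first letter the labels do not spell out. The sources used here give neither age, sex and number of mice nor the sorting gate.

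CDK inhibitors hold back the cyclin-dependent kinases that drive a cell from G1 into S phase. The Cip/Kip proteins p21 (Cdkn1a) and p27 (Cdkn1b) bind whole cyclin-CDK complexes, while the INK4 proteins p18 (Cdkn2c) and p19 (Cdkn2d) bind CDK4 and CDK6. The transcription factor p53 is stabilised by DNA damage and other stress and switches on genes for arrest, repair and death, among them Cdkn1a, and also Mdm2, the ubiquitin ligase that returns p53 to a low level. In T cells p27 is known as a brake of the resting state, and Btg2 and the FoxO-responsive sestrins also have p53-independent control.

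The libraries held 17588754 to 20868319 counts. A count of 0 allows up to 3 counts, or 0.143 to 0.17 CPM. Ripk1 was at 83.6 and 77.5 CPM in WT rTreg and aTreg and at 84.7 and 80.8 CPM in those labelled knockout (edgeR adjusted p = 0.658), so the counts over the whole gene do not show the deletion and the latter libraries are called knockout-labelled below. Xist, the RNA of the inactive X chromosome, was at 299 and 338 CPM in WT but at 0.284 and 0.213 CPM in the knockout-labelled libraries. The Y-linked Ddx3y was between 97.5 and 126 CPM in all 4. Of other Y-linked genes, Kdm5d and Eif2s3y were higher in the knockout-labelled libraries (log2 0.42 and 0.50, edgeR adjusted p = 0.000507 and 0.000126). Ddx3y and Uty were not called for genotype. Genotype and the sex makeup of the mice therefore cannot be told apart in any genotype difference. All 6 Treg markers, Foxp3 among them, were between 288 and 893 CPM. Summed markers of other cells were low: 13.9 to 24.5 CPM for 6 B cell genes, 14.2 to 18.6 for 7 myeloid genes, 10.3 to 13.6 for 4 CD8 T and NK cell genes, 0.429 to 1.82 for 3 plasma cell genes, and for 4 erythroid genes 0.619 and 1.65 in WT against 9.2 and 10.3 in knockout-labelled libraries, led by Hba-a1. No marker was at 0 in all 4 libraries, and the part of these cells in the genotype differences below was not tested. With 1 library per combination of genotype and state, intervals in square brackets cover counting error only, and p-values come from a fit over all genes whose error is the spread between pairs of these libraries, not between mice.

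The stretches below lie upstream of starts of 6 of the 10 genes and are shown because each holds a match to a p53 or CREB family sequence. Capitals mark the p53 decamer consensus, the 10-base unit of which p53 binds a pair, or in Btg2 a cAMP response element, TGACGTCA, the site of the CREB family. The decamers match without mismatch, except that the run of 20 capitals in Cdkn1a and in Ccng1 is a pair with 1 mismatch to the consensus. Sequences are RefSeq's on GRCm38.p6, 5′ to 3′ on the strand of the gene.
Cdkn1a, chr17:29090856-29090975, plus strand: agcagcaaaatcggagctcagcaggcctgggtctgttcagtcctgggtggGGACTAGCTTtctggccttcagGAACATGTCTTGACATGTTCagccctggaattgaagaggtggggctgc
Mdm2, chr10:117710885-117710994, minus strand: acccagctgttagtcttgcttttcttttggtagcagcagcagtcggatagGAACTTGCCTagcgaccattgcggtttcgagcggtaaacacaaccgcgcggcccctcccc
Ccng1, chr11:40755412-40755531, minus strand: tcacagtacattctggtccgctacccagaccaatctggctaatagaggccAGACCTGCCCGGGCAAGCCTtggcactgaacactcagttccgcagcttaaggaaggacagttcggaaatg
Sesn1, chr10:41887216-41887325, plus strand: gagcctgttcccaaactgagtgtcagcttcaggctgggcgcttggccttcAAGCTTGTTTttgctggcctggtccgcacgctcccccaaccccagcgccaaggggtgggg
Trp53, chr11:69580256-69580343, plus strand: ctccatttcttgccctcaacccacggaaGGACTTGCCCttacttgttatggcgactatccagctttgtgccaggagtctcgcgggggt
Btg2, chr1:134079264-134079371, minus strand: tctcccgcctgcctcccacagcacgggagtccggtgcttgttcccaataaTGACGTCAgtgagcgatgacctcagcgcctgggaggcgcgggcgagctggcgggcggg

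Windows from 250 bases before to 50 after a RefSeq start were found for 9 of the 10 genes, all but Trp53inp1. Cdkn1a, Sesn1 and Cdkn2c had 2 windows each. Percentages below count windows, while each of the 9 genes is counted once. Searched on both strands, 8.36% of all 32851 windows held the p53 decamer without mismatch, and 6 of the 9 genes did: those shown above other than Btg2, and Cdkn2d. A pair of adjacent decamers with at most 1 mismatch in 20 bases was in 29 of all windows, or 0.0883%, and these included Cdkn1a and Ccng1. In Cdkn1a the pair ends 32 bases before the upstream of its 2 starts, which lie 2790 bases apart, and in Ccng1 it ends 176 bases before the start. In Sesn1 the single decamer shown ends 164 bases before the downstream of its 2 starts, and the window of the upstream start held none. The element of Btg2, 159 to 166 bases before its start, was in 1.79% of windows. The genes were chosen in part as p53 targets, so these matches describe the set and are not sites shown to be bound.

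Between genotypes, the 10 genes split. Cdkn1a, Cdkn2c, Ccng1 and Mdm2 rose in the knockout-labelled libraries, Btg2, Sesn1, Cdkn1b and Trp53inp1 fell, and Trp53 and Cdkn2d were not called by edgeR's quasi-likelihood test at an adjusted p of 0.05. Of all tested genes 47.2% were called, 24.4% higher and 22.8% lower, so 4 higher and 4 lower of 10 stand against a large background. The median fitted log2 change was -0.01 over the 10 genes and 0.002 over all tested genes, and the median size of the change was 0.39 against 0.24. By the ratio of 2 libraries alone, 4 of the 10 were at least 2-fold apart in rTreg, where 4.75% of tested genes were, and 3 in aTreg, where 6.12% were. The genotype ratio had the same sign in both states for 8 of the 10, against 82.7% of tested genes. Some values below are said not to overlap between genotypes, or to lie apart. That describes 4 libraries only, and the share of all tested genes with such values was not counted.

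**Figure D1:**
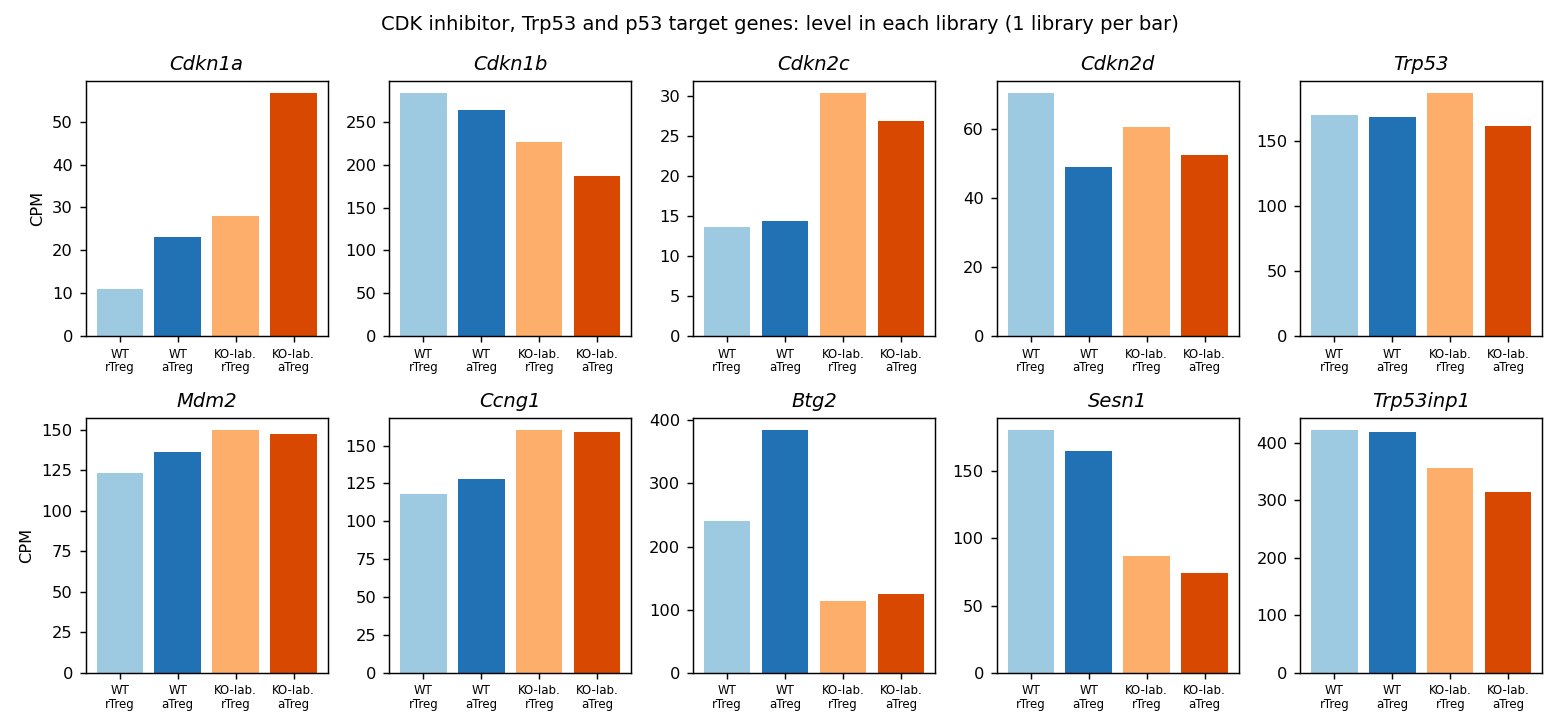
Level of each of the 10 genes in CPM (vertical axis from 0, scaled per gene) in WT rTreg, WT aTreg, knockout-labelled rTreg and knockout-labelled aTreg, 1 library per bar. Cdkn1a was lowest in WT rTreg at 11.0 CPM and highest in knockout-labelled aTreg at 56.7 CPM, whereas Sesn1 was at 181 and 165 CPM in WT and at 87.2 and 74.6 CPM in the knockout-labelled libraries.

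Of the Cip/Kip genes, Cdkn1a rose and Cdkn1b fell. Cdkn1a (chromosome 17, 29090976 to 29100727, plus strand, GRCm38) had a level of 11.0 CPM for WT rTreg, 23.0 for WT aTreg, 28.1 in knockout-labelled rTreg and 56.7 in knockout-labelled aTreg. The knockout-labelled library was the higher in either state, and the aTreg library the higher in either genotype. The log2 ratio of knockout-labelled over WT was 1.35 [1.13 to 1.59] in rTreg and 1.30 [1.14 to 1.46] in aTreg, and the fitted change was 2.51-fold (log2 1.33, SE 0.108, edgeR adjusted p = 1.05e-06). With the states of a genotype taken as replicates the call was lost (edgeR adjusted p = 0.111), in a fit whose error includes the state difference of this gene, while over all 6 alternative fits its adjusted p ran from 7.62e-28 to 0.111. Of the exon bases of Cdkn1a, 273 overlap an unclassified transcript on the opposite strand, and whether counting used the strand is not given in the sources used here.

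Cdkn1b (chromosome 6, 134920401 to 134925513, plus strand), a gene with far more reads, reached 284 CPM in WT rTreg and 264 in WT aTreg, against 227 in knockout-labelled rTreg and 187 in knockout-labelled aTreg. Both knockout-labelled values lay below both WT values. Its log2 ratio was -0.33 [-0.39 to -0.27] in rTreg and -0.49 [-0.55 to -0.43] in aTreg, a fitted fall to 0.753 of the WT level (log2 -0.41, SE 0.0697, edgeR adjusted p = 0.000379). With the states as replicates the edgeR adjusted p was 0.0728, the highest of 6 alternatives, of which the lowest was 2.85e-07.

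Of the INK4 genes, Cdkn2c rose and Cdkn2d was not called. Cdkn2c (chromosome 4, 109660876 to 109667189, minus strand) was at 13.6 and 14.4 CPM in WT rTreg and aTreg and at 30.3 and 26.8 CPM in the knockout-labelled pair, groups that did not overlap. It rose 2.03-fold (log2 1.02, SE 0.128, edgeR adjusted p = 3.39e-05), with library ratios of 1.15 [0.94 to 1.37] and 0.89 [0.69 to 1.11]. Cdkn2d (chromosome 9, 21288410 to 21291407, minus strand) was at 70.4, 48.9, 60.7 and 52.6 CPM in the order WT rTreg, WT aTreg, knockout-labelled rTreg, knockout-labelled aTreg. The WT values enclosed the knockout-labelled ones. Its fitted genotype change was -0.06 with a 95% interval of -0.25 to 0.13 (edgeR adjusted p = 0.609).

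Genes of the same family that lay near or below the level minimum were looked at beside them. Cdkn2a, the locus of p16 and, from another first exon, of ARF, a protein that inhibits Mdm2, had 14 and 15 counts in WT rTreg and aTreg and 93 and 199 in knockout-labelled rTreg and aTreg. That is 7.91-fold [4.49 to 15.0] higher in rTreg and 14.6-fold [8.62 to 26.5] in aTreg, and a count over the whole gene does not separate its 2 products. Cdkn2b, which encodes p15, had 1 and 8 counts in WT and 10 and 45 in the knockout-labelled libraries, 11.9-fold [1.69 to 517] and 6.17-fold [2.88 to 15.2] higher. Cdkn1c, which encodes p57, had 68 to 79 counts in each library. Cdkn3, a phosphatase that acts on CDKs rather than an inhibitor of either family, was at 3.57 and 2.28 CPM in WT and at 11.5 and 12.3 CPM in the knockout-labelled libraries, 3.21-fold [2.45 to 4.24] higher in rTreg and 5.39-fold [3.93 to 7.55] in aTreg. It reached the minimum of 5 CPM only through the knockout-labelled libraries, so these values are a description and its call is given no weight.

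**Figure D2:**
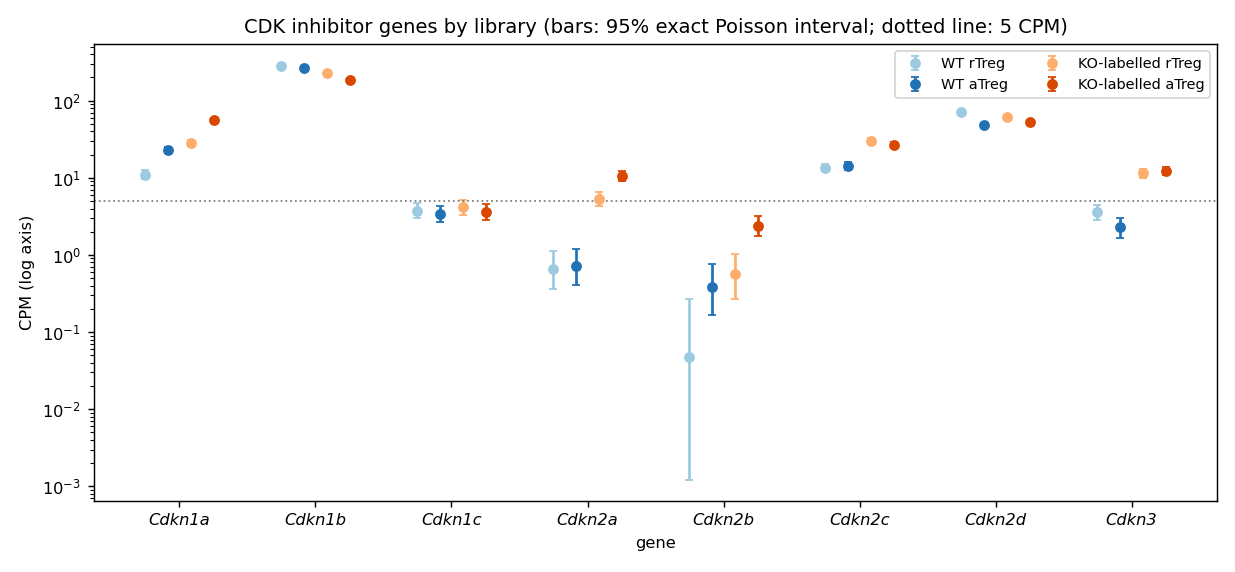
CPM of 8 genes (log axis) in the 4 libraries, with bars for the exact 95% Poisson interval of the count and a dotted line at the minimum of 5 CPM. Cdkn1a, Cdkn2a, Cdkn2b, Cdkn2c and Cdkn3 are higher in each knockout-labelled library than in the WT library of the same state, Cdkn1b is lower, and Cdkn1c lies between 3.4 and 4.14 CPM throughout.

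Proliferation markers also differed by genotype. All 15 of a list rose, where 24.4% of tested genes did, with a median log2 change of 1.57 led by Birc5 (2.13), Ccnb2 (2.07), Mki67 (1.90) and Rrm2 (1.88), and their summed level was 1124 and 810.2 CPM in WT rTreg and aTreg and 2607 and 2425 CPM in the knockout-labelled libraries. The share of dividing cells in a bulk library and the RNA per cell cannot be told apart, and the part of proliferation in the values of the CDK inhibitors was not tested. Mki67, the classic marker of cycling, had 238 CPM for WT rTreg and 137 for WT aTreg, against 706 and 648 CPM for the knockout-labelled rTreg and aTreg libraries. In aTreg, 4 of the 15 markers fell, among them Birc5 (log2 -0.67) and Top2a (-0.64), and none rose. That is 26.7% called for state against 13.4% of all tested genes.

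Trp53, the p53 gene itself, was not called for genotype. Trp53 (chromosome 11, 69580359 to 69591873, plus strand) stood at 170.3 CPM (WT rTreg), 169 (WT aTreg), 187 (knockout-labelled rTreg) and 162 (knockout-labelled aTreg). The knockout-labelled values lay on either side of the WT ones. Its fitted genotype change was 0.04 with a 95% interval of -0.12 to 0.19 (edgeR adjusted p = 0.691), and under upper-quartile scaling it was -0.01. p53 is controlled mainly as a protein, which these data do not measure.

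Among the p53 targets, Ccng1 and Mdm2 rose by small amounts, and the call of Mdm2 was not stable. Ccng1, cyclin G1 (chromosome 11, 40748552 to 40755311, minus strand), was at 118 and 128 CPM in WT rTreg and aTreg and at 160.4 and 159 CPM in the knockout-labelled libraries, groups that did not overlap. It rose 1.30-fold (log2 0.38, SE 0.0667, edgeR adjusted p = 0.000529). Mdm2 (chromosome 10, 117688875 to 117710758, minus strand) was at 123 and 136 CPM in WT rTreg and aTreg and at 149.8 and 147 CPM in the knockout-labelled libraries. The groups did not overlap either, by a small margin, and the fitted rise was 1.15-fold (log2 0.20, SE 0.069, edgeR adjusted p = 0.0325). Its call was lost with upper-quartile scaling (edgeR adjusted p = 0.0861), with the states as replicates (0.178) and with DESeq2 (adjusted p = 0.242), and the lowest adjusted p of its alternatives was 0.0176.

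Btg2, an antiproliferative gene that is also an immediate early gene, had the largest fall of the 10. Btg2 (chromosome 1, 134075170 to 134079120, minus strand) had 241 CPM for WT rTreg, 385 for WT aTreg, 113 in knockout-labelled rTreg and 124 in knockout-labelled aTreg. Both knockout-labelled libraries lay far below both WT libraries. Log2 ratios were -1.09 [-1.17 to -1.02] in rTreg and -1.64 [-1.71 to -1.57] in aTreg, and the gene fell with genotype to 0.387 of the WT level (log2 -1.37, SE 0.103, edgeR adjusted p = 5.45e-07). The difference between those ratios was -0.55 [-0.65 to -0.45], beyond counting error but with no replicate to test it. Of 10 tested immediate early and handling genes, 5 fell with genotype and none rose, where 22.8% of all tested genes fell and 24.4% rose. In either direction, 5 of 10 were called, against 47.2% of all tested genes. Of the 5 that fell, Dusp1, Egr1, Fos and Junb had log2 changes of -1.20, -0.98, -0.87 and -0.72. The log2 ratio of Egr1 was -0.03 [-0.1 to 0.04] in rTreg and -1.89 [-1.94 to -1.84] in aTreg, so its fitted value describes neither state. The summed level of that list was 5602 and 10226 CPM in WT rTreg and aTreg and 4631 and 5672 CPM in the knockout-labelled libraries, and its part in the Btg2 values was not tested.

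Sesn1, a stress protein that restrains mTORC1 (chromosome 10, 41809935 to 41908424, plus strand), was at 181 and 165 CPM in WT rTreg and aTreg and at 87.2 and 74.6 CPM in the knockout-labelled libraries. The groups lay well apart. It fell with genotype to 0.466 of the WT level (log2 -1.10, SE 0.0668, edgeR adjusted p = 1.42e-07), with ratios of -1.05 [-1.14 to -0.97] in rTreg and -1.15 [-1.24 to -1.06] in aTreg that differed by -0.09 [-0.22 to 0.03]. Trp53inp1, a p53 cofactor in stress and autophagy (chromosome 4, 11156431 to 11174379, plus strand), was at 423 and 419 CPM in WT rTreg and aTreg and at 357 and 314 CPM in the knockout-labelled libraries. It fell less (log2 -0.33, SE 0.0711, edgeR adjusted p = 0.00205), and its call was lost with the states as replicates (edgeR adjusted p = 0.0702, against a lowest value of 4.49e-05 over the alternatives).

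**Figure D3:**
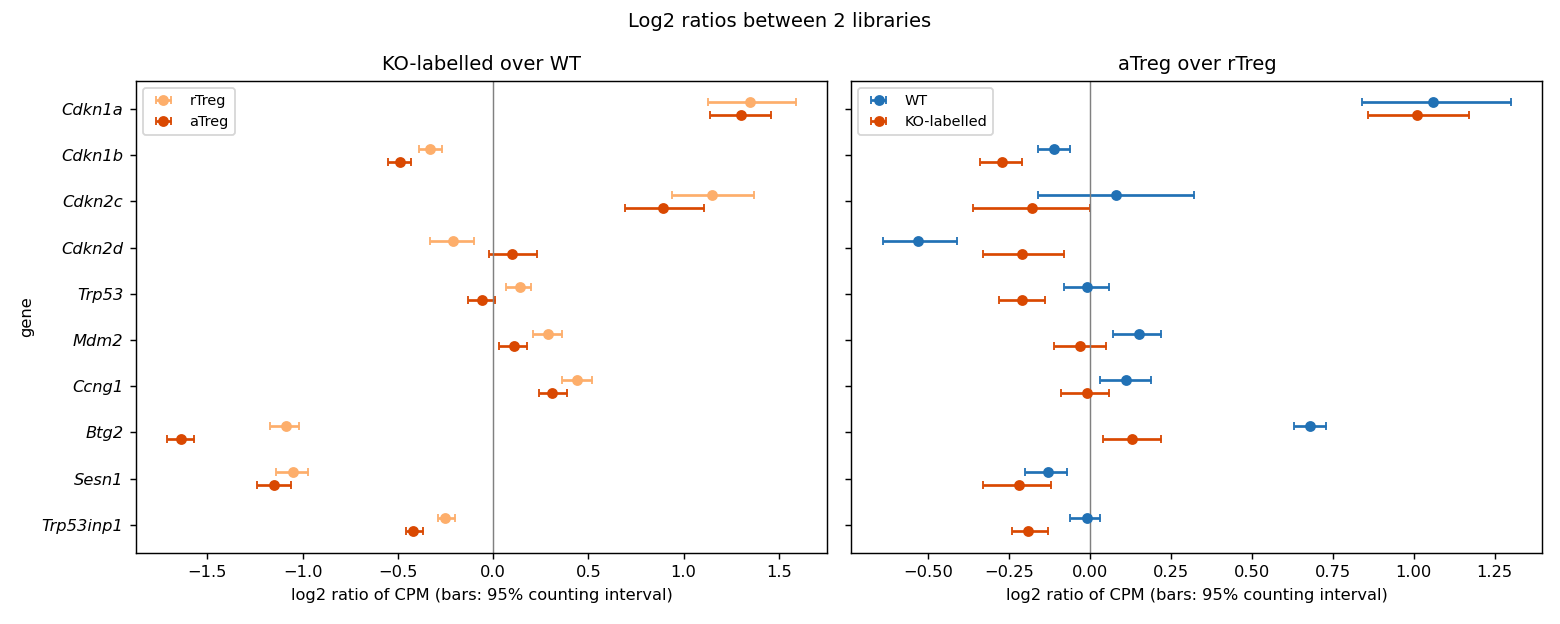
Log2 ratios of CPM between 2 libraries for the 10 genes with 95% counting intervals, knockout-labelled over WT in each state on the left and aTreg over rTreg in each genotype on the right. On the left, Cdkn1a and Cdkn2c lie near 1 or above and Btg2 and Sesn1 below -1 in both states, while on the right Cdkn1a stands at 1.06 in WT and 1.01 in the knockout-labelled pair and Btg2 at 0.68 and 0.13.

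Of 8 tested relatives of the 10 genes and other CDK regulators, 4 fell, where 22.8% of all tested genes did, and 3 were not called. The remaining gene is Cdkn3, whose call is given no weight since it reached the minimum only through the knockout-labelled libraries. The median log2 change of the list, Cdkn3 included, was -0.18. Btg1, an antiproliferative relative of Btg2, fell with genotype (log2 -0.87, SE 0.0722, edgeR adjusted p = 1.21e-06), from 1299.7 and 1178 CPM in WT rTreg and aTreg to 753 and 606 CPM. Sesn3, a sestrin that FoxO factors induce, fell as well (log2 -0.58, SE 0.067), while Sesn2 was at 16.2 to 20.7 CPM and was not called (log2 -0.01, edgeR adjusted p = 0.972). Mdm4, the Mdm2 relative that inhibits p53, fell (log2 -0.52) where Mdm2 rose. Ccng2, cyclin G2, fell slightly (log2 -0.19, edgeR adjusted p = 0.038), unlike Ccng1. Btg3 (-0.08) and Trp53inp2 (-0.17) were not called for genotype. Trp73, which encodes the p53 relative p73, was low, with 7 and 3 counts in WT rTreg and aTreg and 24 and 57 in the knockout-labelled libraries, 4.08-fold [1.71 to 11.2] and 20.9-fold [6.78 to 104] higher.

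Other p53 targets were called in both directions. Of 27 tested genes of a list of 36, 9 rose and 7 fell with genotype and 11 were not called, with a median log2 change of 0.07, so 59.3% were called against 47.2% of all tested genes. Trp53i11 (log2 1.0) led those that rose. The detoxifying enzyme gene Ephx1 fell from 192 and 246 CPM in WT to 92.7 and 82.1 CPM (log2 -1.32, SE 0.101, edgeR adjusted p = 6.39e-07). Gadd45a, a growth arrest and DNA damage gene, fell by 1.16 on the log2 scale and the kinase gene Plk2 by 0.89. Phlda3, a p53-induced inhibitor of Akt, was below the minimum, with 39 and 72 counts in WT rTreg and aTreg and 70 and 98 in the knockout-labelled libraries, 2.14-fold [1.43 to 3.25] and 1.49-fold [1.09 to 2.05] higher. Perp, a p53 target in cell death and adhesion, had 23 and 29 counts in WT and 26 and 24 in the knockout-labelled libraries, with folds of 1.35 [0.739 to 2.47] and 0.908 [0.506 to 1.62]. Dcxr had 63 and 105 counts in WT and 73 and 107 in the knockout-labelled libraries, with folds of 1.38 [0.972 to 1.97] and 1.12 [0.846 to 1.48].

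Genes that control p53 were also called in both directions. Of 24 tested, 5 rose and 9 fell with genotype, so 58.3% were called against 47.2% of all tested genes, with a median log2 change of -0.09. For state 2 fell, Ppp1r13b (log2 -0.24) and Daxx (-0.21), and none rose, so 8.33% were called against 13.4% of all tested genes. The checkpoint kinase gene Chek1, which is also induced in dividing cells, rose 2.53-fold (log2 1.34, SE 0.169, edgeR adjusted p = 3.65e-05), and Hipk2, a kinase of p53, rose as well (log2 0.47). Bcl6, a repressor known to act on Trp53 in B cells, fell (log2 -0.81), as did Ppp1r13b (log2 -0.63), which encodes a protein that directs p53 to death genes.

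Most called genes of a list of G1 cyclins, CDKs and RB-E2F pathway genes rose, and its cyclins and CDKs were not counted apart. Of 25 tested genes of G1 cyclins, CDKs and the RB-E2F pathway, 16 rose, where 24.4% of all tested genes did, and E2f5 alone was called lower, with a median log2 change of 0.45. E2f5 reached the minimum only through the WT libraries, at a mean of 7.87 CPM against 4.86. E2f8 (log2 2.30), E2f7 (1.98), Ccna2 (1.77) and E2f1 (1.68) changed most, while Rb1, the gene of the pocket protein that CDK4 and CDK6 inactivate, was not called (0.04, edgeR adjusted p = 0.706). Of 17 tested genes of FoxO factors and p27 turnover, 5 rose and 6 fell, with a median of -0.06, and 24.4% and 22.8% of all tested genes did so. In aTreg 4 fell and none rose, so 23.5% were called for state against 13.4% of all tested genes. Irs2 (log2 -0.39), an adaptor of insulin signalling whose gene FoxO factors induce, was among those that fell. Skp2, the gene of the ligase that marks p27 for destruction, was absent from the counted genes. Cks1b, the cofactor with which the SKP2 ligase marks p27 for destruction, rose 3.18-fold (log2 1.67, SE 0.164, edgeR adjusted p = 5.05e-06), Akt1 rose (log2 0.71), and Foxo3 (log2 -0.47) and Pik3ip1, an inhibitor of PI3K (log2 -0.75), fell.

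**Figure D4:**
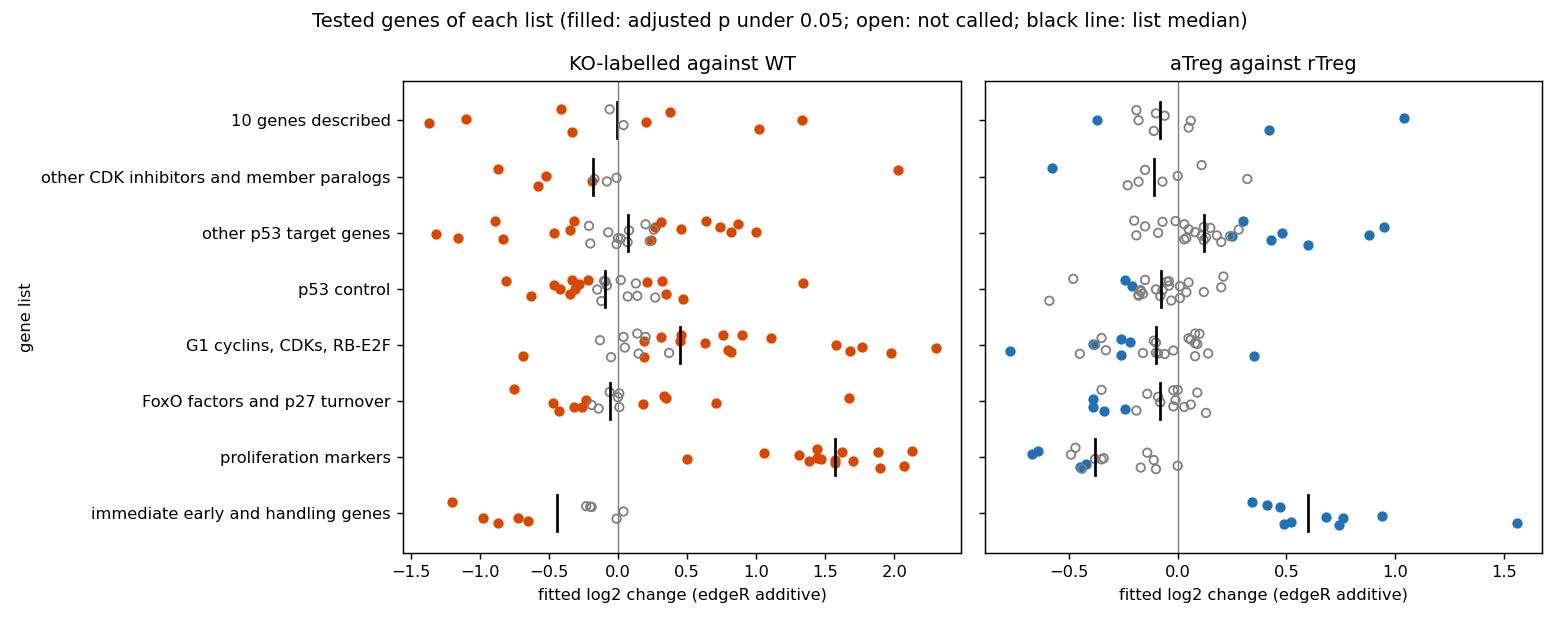
Fitted log2 change of every tested gene of each list for genotype (left, knockout-labelled against WT) and state (right, aTreg against rTreg), with called genes filled, others open and the list median as a black line. The proliferation markers lie right of 0 for genotype with a median of 1.57, the other p53 targets straddle 0 with a median of 0.07, and the immediate early and handling genes lie right of 0 for state with a median of 0.60.

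Between states, 3 of the 10 genes passed. Cdkn1a and Btg2 rose and Cdkn2d fell in aTreg, where 13.4% of all tested genes were called, 7.91% higher and 5.44% lower. Cdkn1a rose 2.05-fold (log2 1.04, SE 0.108, edgeR adjusted p = 5.33e-05), with ratios of 1.06 [0.84 to 1.30] in WT and 1.01 [0.86 to 1.17] in the knockout-labelled pair. The difference of its genotype ratios between states was -0.06 [-0.33 to 0.22], which counting error alone covers.

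Btg2 rose 1.33-fold in aTreg (log2 0.42, SE 0.101, edgeR adjusted p = 0.0161), by 0.68 [0.63 to 0.73] in WT and by 0.13 [0.04 to 0.22] in the knockout-labelled pair. All 10 tested immediate early and handling genes rose in aTreg, where 7.91% of tested genes did, with Egr1 (log2 1.56) and Hspa1b (0.94) changing most. Cdkn2d fell by 0.37 log2 units (SE 0.0872, edgeR adjusted p = 0.0136), by 0.53 in WT and 0.21 in the knockout-labelled pair. DESeq2 called Cdkn1a of these, with Btg2 at an adjusted p of 0.0529 and Cdkn2d at 0.201. With the genotypes as replicates, edgeR called none of the 10 and none of the 9680 tested genes for state. In that fit 328 genes, or 3.39%, had an unadjusted p under 0.05, fewer than the 5% that a test of genes with no difference gives, and each adjusted p of Cdkn1a, Btg2 and Cdkn2d was then 1.0, against lowest values of 5.33e-16, 7.95e-07 and 0.000303 over their alternatives.

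The remaining 7 genes were not called for state. Their fitted changes ran from -0.19 in Cdkn1b (95% interval -0.34 to -0.04, edgeR adjusted p = 0.0953) to 0.06 in Mdm2 (-0.09 to 0.21, 0.66). Sesn1 was at -0.18 (-0.32 to -0.03, edgeR adjusted p = 0.104). Of the 27 other p53 targets, 7 rose in aTreg and none fell, so 25.9% were called against 13.4% of all tested genes, led by Abhd4 (log2 0.95) and Plk3 (0.88), a kinase of the stress response that rose from 84.7 to 175 CPM in WT and from 90.9 to 148 CPM in the knockout-labelled pair.

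Per kilobase of merged exons (GENCODE M21), the order of the 10 genes shifted between the extremes. In WT rTreg, Btg2 was first at 87.8 CPM per kilobase, then Trp53inp1 (65.4) and Cdkn1b (62.5), and Cdkn1a last at 3.08 after Cdkn2c (5.07). In knockout-labelled aTreg, Trp53inp1 was first at 48.5, followed by Ccng1 (45.3) and Btg2 (45.1), which lie within counting error of each other, and Cdkn2c was last at 9.96 after Cdkn1a (15.9). The level of Sesn1 per kilobase went from 45.5 to 18.7 between these libraries. The transcripts the cells use are not known, so these levels rest on the annotation.

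In the authors' deposited table, 5 of the 10 genes had an adjusted p under 0.05 for genotype, where 16.6% of genes with such a value did. These were Sesn1, Btg2, Cdkn2c, Ccng1 (0.0213) and Cdkn1b (0.0415). The authors' deposited table gave Trp53inp1 an adjusted p of 0.0598, Cdkn1a 0.201 and Mdm2 0.335. Its log2 fold change of WT over knockout was -1.33 for Cdkn1a with a standard error of 0.695, and 1.09 for Sesn1 with a standard error of 0.15. DESeq2 run on the counts with genotype as the only term gave the fold changes of that table within 5.29e-05, that is, with rTreg and aTreg of a genotype as replicates, where the difference of Cdkn1a between states enters its error.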

How the data were processed

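Per the labels' protocols, TRIzol RNA went into a SMARTer library kit. The submitters' processing notes list HISAT2 2.2.1, featureCounts 2.0.1 and the build GRCm38; which annotation was counted, and whether by strand, was not stated. The authors deposited raw read counts per gene symbol. The authors also deposited variance-stabilised values on a log2 scale. Per the file headers, that table adds log2 fold changes, a mean normalised count (a signal), a test statistic (a score) and p-values.

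CPM were computed from the counts with TMM scaling (factors 0.995 to 1.0057) in edgeR 4.0.16 (R 4.3.3). All genes that averaged 5 CPM or more entered 1 additive quasi-likelihood fit of state and genotype over the 4 libraries, with 1 residual degree of freedom and a prior of 11.8. P-values were adjusted by Benjamini-Hochberg over all 9680 genes, and "rose" and "fell" mean an adjusted p under 0.05. Library ratios on the log2 scale carry a prior count of 2 and exact 95% binomial intervals, and differences of ratios an interval from the 4 counts. Without molecular identifiers, intervals and floors cover counting error only. Alternatives were other scalings and level minimums, DESeq2 1.42.0, single-term models and other prior counts. Positions are from GENCODE M21.

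The 10 genes and all lists were chosen with earlier results of these data known. Names were drawn from the 10 genes, Ripk1, Foxp3, all tested relatives, per list the 4 genes called for genotype and 2 called for state with the largest changes, and list genes below the minimum with at least 20 counts in a library. Xist, Ddx3y, Kdm5d, Eif2s3y, Uty, Hba-a1 and E2f5 were named after their values were seen.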

Additional observations from a re-analysis of the deposited data

Results flagged for a closer look

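For 5 differences, the 2 ratios compared had opposite signs, and none of these differences was tested, since each combination has 1 library. The knockout-labelled over WT log2 ratio of Cdkn2d was -0.21 in rTreg and 0.1 in aTreg, a difference of 0.32 (aTreg minus rTreg). That of Trp53 was 0.14 and -0.06, a difference of -0.2. The aTreg over rTreg log2 ratio of Cdkn2c was 0.08 for WT and -0.18 for knockout-labelled libraries, a difference of -0.26 (knockout-labelled minus WT). That of Mdm2 was 0.15 and -0.03, a difference of -0.18. That of Ccng1 was 0.11 and -0.01, a difference of -0.13.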

How the results depend on the processing

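No paired analysis was possible because the labels give no replicate numbers; the state term already compares genotypes within each state. With the states as replicates, edgeR called 2 of the 10 genes higher and 2 lower for genotype (4 and 4 with state in the fit), 14 list genes lower (32), and 929 genes higher and 697 lower of all tested (2363 and 2210). DESeq2 with both terms called 1370 higher and 1157 lower for genotype; for state it called 1 of the 10 genes higher and 0 lower, 6 list genes higher and 4 lower (18 and 16), and 289 and 134 of all genes (766 and 527). With the genotypes as replicates, edgeR made 0 state calls in either direction among the 10 genes, the lists and all genes, with 3.39% of genes at an unadjusted p under 0.05. Without the level minimum, 25 list genes and 793 of all genes were called lower for state. The genotype change of Trp53 was -0.01 under upper-quartile scaling (edgeR adjusted p = 0.921), over alternatives from 0.716 to 0.921. The cause of these shifts was not tested. Over the refits of the 10 genes, 108 values kept direction and side of the threshold, 11 lost the call and 1 changed sign. Of the values from 1 pair of libraries or from the authors' variance-stabilised values, 66 stayed within the fitted 95% interval and 14 moved outside it. Among the latter, in rTreg and aTreg the variance-stabilised genotype difference was 0.75 and 0.9 for Cdkn1a (1.33 fitted) and 0.67 and 0.52 for Cdkn2c (1.02). A difference of variance-stabilised values is not the same measure as a fitted log2 change, so the 2 need not be equal. Of the ratios from 1 pair of libraries, only those of Btg2 moved outside. For genotype they were -1.09 in rTreg and -1.64 in aTreg (-1.37 fitted, interval -1.59 to -1.15). For state they were 0.68 in WT and 0.13 in the knockout-labelled pair (0.42 fitted, interval 0.2 to 0.64). Leaving out 1 library leaves the additive fit no residual degree of freedom and was not run. Cdkn2b, at 1 to 45 counts, has a wide interval.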

Other observations

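Other sequences searched in the promoter windows gave these values, as descriptions only. The FoxO sequence GTAAACA was in 3.65% of all 32851 windows and in those of Mdm2 and Sesn1. The E-box CACGTG was in 7.15% and in those of Cdkn2c and Trp53. The E2F sequences TTTGGCGC and TTTCCCGC were in 0.514% and 1.07% of windows and in none of those of the 9 genes.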
